A study of Homo sapiens with 6 samples.

Results

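The Hippo pathway genes and the target genes of its effector complex, YAP-TEAD, were followed in RH30 cells with and without MyoD. The set held 33 genes, of which 20 were target genes of YAP-TEAD (CCN1, CCN2, ANKRD1, AMOTL1, AMOTL2, AXL, LATS2, AJUBA, CRIM1, FJX1, NT5E, WWC1, NUAK2, PTPN14, ARHGEF17, FOXF2, RBMS3, MYOF, DOCK5 and ASAP1) and 13 were core genes of the pathway (YAP1, WWTR1, TEAD1, TEAD2, TEAD3, TEAD4, LATS1, STK3, STK4, SAV1, NF2, VGLL3 and VGLL4). They were chosen by symbol, with earlier results of these data known. All 33 had a value among the 22448 genes on the arrays. Each gene was read from the transcript cluster (the array's probe set for one locus) that carried only its symbol and had the highest mean over the 6 arrays. The data were 6 whole-transcriptome arrays of RH30, an established human line of alveolar (fusion-positive) rhabdomyosarcoma, a tumour of cells with a skeletal muscle programme. The cells of both groups carried the super-repressor (SR) form of IκBα, which blocks NF-κB. Their medium, with 10% fetal bovine serum, is DMEM in the labels and RPMI in the study's methods for RH30. The control group was 3 arrays of RH30-SR cells, and the other group was 3 arrays of RH30-SR MyoDΔ cells, in which MyoD had been targeted with CRISPR/Cas9 and a guide RNA. The MyoDΔ arrays came from 1 selected clone, number 29, and whether Cas9 or a guide was also given to the controls is not stated in the labels. Replicates were numbered from 1 to 3 in each group and may share a culture. The p-values therefore cover the spread of these arrays, not the spread of clones. In bulk RNA, fewer cells of a type and less RNA per cell cannot be told apart.

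The Hippo pathway is a kinase cascade in which the MST kinases, with the adaptor SAV1, activate the LATS kinases, and LATS phosphorylates the coactivators YAP and TAZ. Phosphorylated YAP and TAZ are held in the cytoplasm or degraded, while unphosphorylated YAP and TAZ enter the nucleus and bind DNA through the TEAD transcription factors. Control is therefore largely at the level of protein, which arrays do not measure, and the RNA of target genes is often used to read the output of the pathway. In skeletal muscle, TEAD factors also bind promoters of muscle genes and pair with vestigial-like (VGLL) cofactors, and YAP is known from mouse myoblasts to hold back their differentiation.

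The targeted gene itself was measured first. MYOD1 read 9.09, 9.50 and 9.43 in RH30-SR and 6.95, 7.16 and 6.90 in RH30-SR MyoDΔ (log2 RMA values, in which 1 unit is a doubling), so that every MyoDΔ array lay below every control array. The difference was −2.34 ± 0.12 (SE, n = 3; adjusted p = 1.02e-04, limma), a 5.05-fold lower level. A CRISPR edit need not remove the transcript, and the position of the edit relative to the probes was not worked out here. Array medians lay between 4.27 and 4.31, and the correlation of 2 arrays over all transcript clusters, which are not independent of each other, was 0.994 to 0.997 within a group and 0.989 to 0.992 between groups.

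A gene was called when its Benjamini-Hochberg adjusted p was below 0.05 over all transcript clusters and its fold change was over 25% (0.32 on the log2 scale). Of the 20 target genes, 8 were called higher in RH30-SR MyoDΔ (CCN1, CRIM1, NT5E, WWC1, NUAK2, MYOF, DOCK5 and ASAP1), 1 was called lower (ANKRD1) and 11 were not called. Of all genes tested, 7.01% were called, 2.81% as higher and 4.2% as lower, whereas 45% of the target genes were called. With only clusters above the median of all values (4.29), 1560 of 15786 genes and 9 of 19 target genes were called. Because the list was chosen with earlier results of these data known, these shares describe it and test nothing. Of the 13 core genes, 1 was called, as higher (STK4), which is 7.69%, close to the share of all genes. On adjusted p alone, 9.95% of all genes passed, against 11 of 20 target genes and 2 of 13 core genes. The groups did not overlap for 18 of 20 target genes, 14 of them higher, and for 6 of 13 core genes, 3 higher and 3 lower, against 34.2% of all genes. Without RH30-SR MyoDΔ replicate 2, the genes called higher were 409 of 22448 in place of 631, and 7 target genes were called higher in place of 8.

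**Figure D1:**
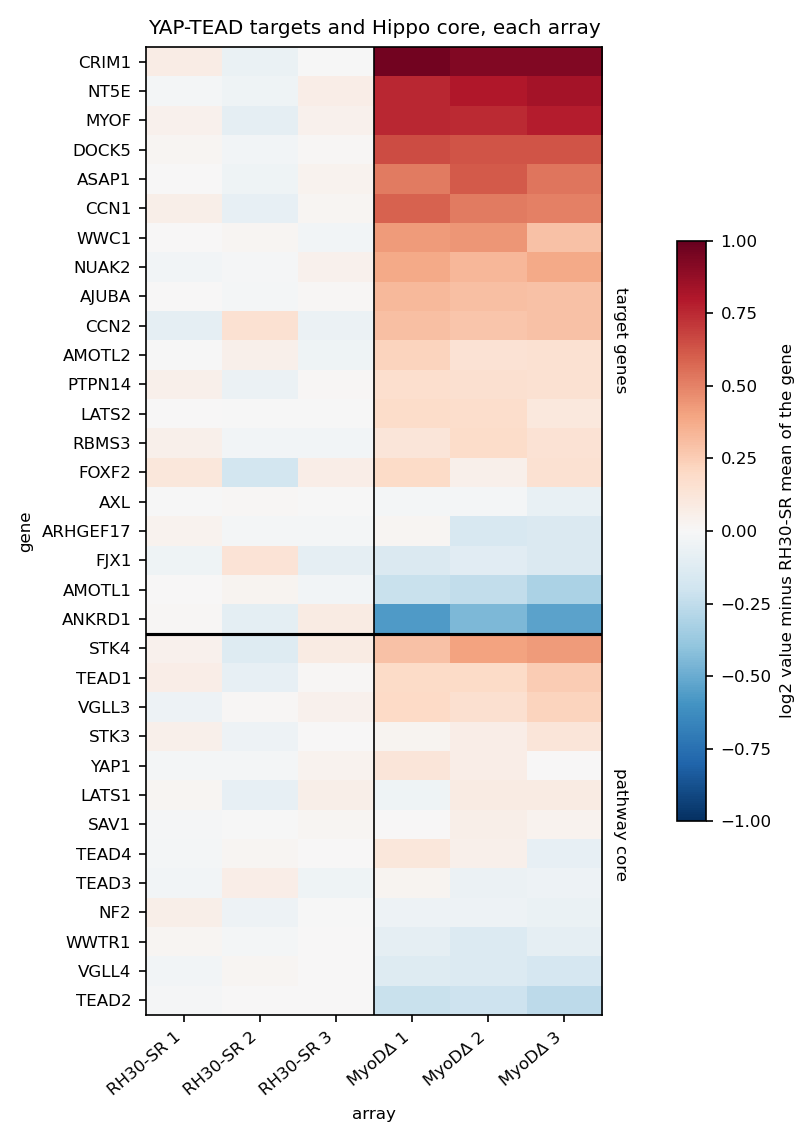
Log2 RMA value of each of the 33 genes on each of the 6 arrays, as the deviation from that gene's RH30-SR mean, with a colour scale from −1 to 1. Genes are ordered by class and, within a class, from the highest to the lowest log2 fold change. CRIM1, NT5E and MYOF are high on all 3 MyoDΔ arrays and ANKRD1 is low on all 3, while most core genes stay near 0.

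The median log2 fold change was 0.23 for the target genes (range −0.52 to 0.94) and 0.03 for the core genes (range −0.23 to 0.37), beside −0.01 for all genes. The median size of change, irrespective of direction, was 0.30 for target genes, 0.07 for core genes and 0.07 for all genes. The 3 MyoDΔ arrays gave the same picture singly. Set against the control mean, the median target gene was 0.26, 0.23 and 0.22 higher on MyoDΔ replicates 1, 2 and 3, and the control arrays lay at 0.01, −0.02 and 0.00. The median core gene was 0.03, 0.06 and 0.00 on the same MyoDΔ arrays. Between 15 and 16 of the 20 target genes lay above their control mean on each MyoDΔ array, and 13, 6 and 10 on RH30-SR replicates 1, 2 and 3. The log2 fold change was positive for 15 of 20 target genes and for 10197 of 22448 genes. These medians and counts are descriptions of the lists, with no test.

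**Figure D2:**
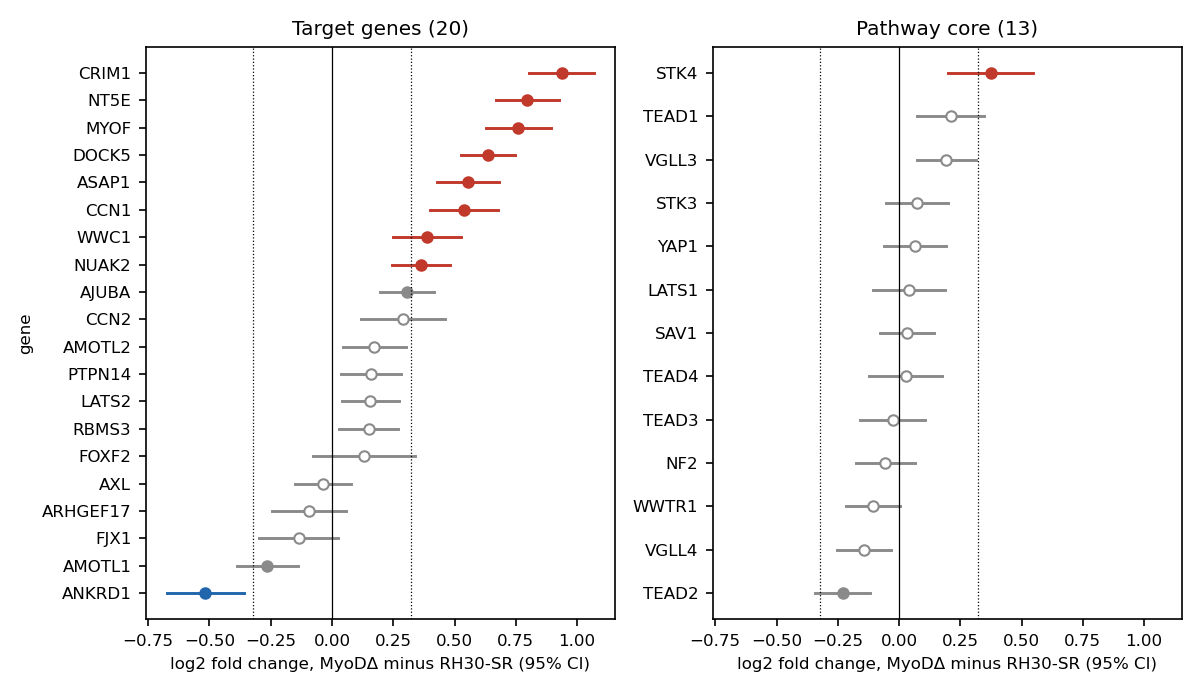
Log2 fold change of each gene, RH30-SR MyoDΔ minus RH30-SR, with its 95% confidence interval from limma (n = 3 arrays per group); red marks called higher, blue called lower, grey not called, filled points an adjusted p below 0.05, and dotted lines the 25% fold threshold. Target genes spread from −0.52 to 0.94 and core genes from −0.23 to 0.37.

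TEAD factors recognise the letters GGAATG, and the promoters of the best known targets show them. RefSeq start-site windows (GRCh38.p14, 250 bases before to 50 after the start, 300 bases in all) matched 25 of the 33 genes; CCN1, CRIM1, ARHGEF17, DOCK5, ASAP1, TEAD1, TEAD4 and STK3 had no window in the table used. The windows of CCN2, ANKRD1 and NUAK2 are shown because they hold several copies and the genes had different calls, and that of NT5E because it holds none and the gene rose. Capitals mark GGAATG, or CATTCC where the letters lie on the other strand. Each window is read 5′ to 3′ on the strand of its gene, and positions are counted from the start site. The CCN2 window was chr6:131951323-131951622 on the minus strand, with matches at −169, −104 and −95. The ANKRD1 window was chr10:90921038-90921337 on the minus strand, with matches at −220 and −128. The NUAK2 window was chr1:205321696-205321995 on the minus strand, with matches at −197 (other strand) and −18. The NT5E window was chr6:85449833-85450132 on the plus strand.
CCN2: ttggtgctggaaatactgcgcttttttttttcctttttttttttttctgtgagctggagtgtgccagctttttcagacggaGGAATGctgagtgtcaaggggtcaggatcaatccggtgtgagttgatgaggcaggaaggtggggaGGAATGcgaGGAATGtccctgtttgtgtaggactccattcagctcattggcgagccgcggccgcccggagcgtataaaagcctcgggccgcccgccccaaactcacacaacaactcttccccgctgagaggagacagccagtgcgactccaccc
ANKRD1: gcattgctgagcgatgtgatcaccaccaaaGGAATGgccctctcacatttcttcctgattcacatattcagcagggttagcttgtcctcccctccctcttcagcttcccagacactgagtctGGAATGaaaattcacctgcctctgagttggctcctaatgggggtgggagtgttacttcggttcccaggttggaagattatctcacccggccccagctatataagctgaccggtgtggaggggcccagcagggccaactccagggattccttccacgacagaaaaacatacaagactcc
NUAK2: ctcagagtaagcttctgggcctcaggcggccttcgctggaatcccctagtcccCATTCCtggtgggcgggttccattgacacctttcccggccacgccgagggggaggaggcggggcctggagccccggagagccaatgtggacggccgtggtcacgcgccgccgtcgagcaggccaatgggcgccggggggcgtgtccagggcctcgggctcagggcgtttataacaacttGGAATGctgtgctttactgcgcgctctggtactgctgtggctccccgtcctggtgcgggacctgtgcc
NT5E: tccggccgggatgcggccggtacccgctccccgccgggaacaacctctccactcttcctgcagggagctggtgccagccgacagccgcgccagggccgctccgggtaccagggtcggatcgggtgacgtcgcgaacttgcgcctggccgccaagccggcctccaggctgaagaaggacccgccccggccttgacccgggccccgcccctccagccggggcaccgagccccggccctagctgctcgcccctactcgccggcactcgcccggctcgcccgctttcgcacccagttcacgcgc

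GGAATG was present on either strand in at least 1 window of 9 of 15 target genes, with 13 matches in all. It was in a window of 1 of 10 core genes (YAP1), beside 14.03% of 35116 windows and 16.73% of 27305 genes in RefSeq. The target genes were listed as targets of YAP-TEAD, so these shares describe the lists and test nothing. The match with 10 bases on each side is shown for the other genes with the letters, to set the surroundings side by side. AMOTL2, AXL and AJUBA have 2 windows each, and only the downstream window of each holds the letters. Positions relative to the start site of the window with the letters were −69 for AMOTL2 (chr3:134374501-134374526, minus strand), −212 for AXL (chr19:41226533-41226558, plus strand), 10 for LATS2 (chr13:21061562-21061587, minus strand) and −59 for AJUBA (chr14:22976886-22976911, minus strand). They were −200 for PTPN14 (chr1:214551787-214551812, minus strand), −196 for FOXF2 (chr6:1389370-1389395, plus strand) and −162 for YAP1 (chr11:102110275-102110300, plus strand).
AMOTL2: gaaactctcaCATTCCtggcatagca
AXL: gactttgcacCATTCCactccctccg
LATS2: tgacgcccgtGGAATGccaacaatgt
AJUBA: gaagttggctGGAATGaagccaaagc
PTPN14: tcccgggccgCATTCCtccccgcccc
FOXF2: ggccgcgagaGGAATGaagagcgagg
YAP1: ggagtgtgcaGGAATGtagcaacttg

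Of the 9 target genes with GGAATG in a window, NUAK2 was called higher, ANKRD1 lower and 7 were not called. Their median log2 fold change was 0.16. Of the 6 without it, 3 were called higher (MYOF, NT5E and WWC1), with a median of 0.27, and the WWC1 call was lost in some fits that left out an array. Of the 5 target genes with no window, 4 were called higher, with a median of 0.56. Of all genes, 2.81% were called higher and 4.2% lower, and these groups are too small to be compared with each other. TGANTCA, the AP-1 motif that often lies beside TEAD sites, was found in the windows of 1 of 15 target genes (ANKRD1, TGATTCA at −195) and 1 of 10 core genes (LATS1), beside 9.368% of all genes and 7.709% of all windows. CAGCTG, an E-box of the kind that MyoD and its partners bind, was found in those of 2 of 15 target genes (AJUBA and FJX1) and 1 of 10 core genes (VGLL4), beside 21.14% of all genes and 17.95% of all windows. Both AP-1 and E-box motifs were searched on both strands. A match describes letters only, and distal enhancers, where much TEAD binding is known to lie, were outside these windows.

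**Figure D3:**
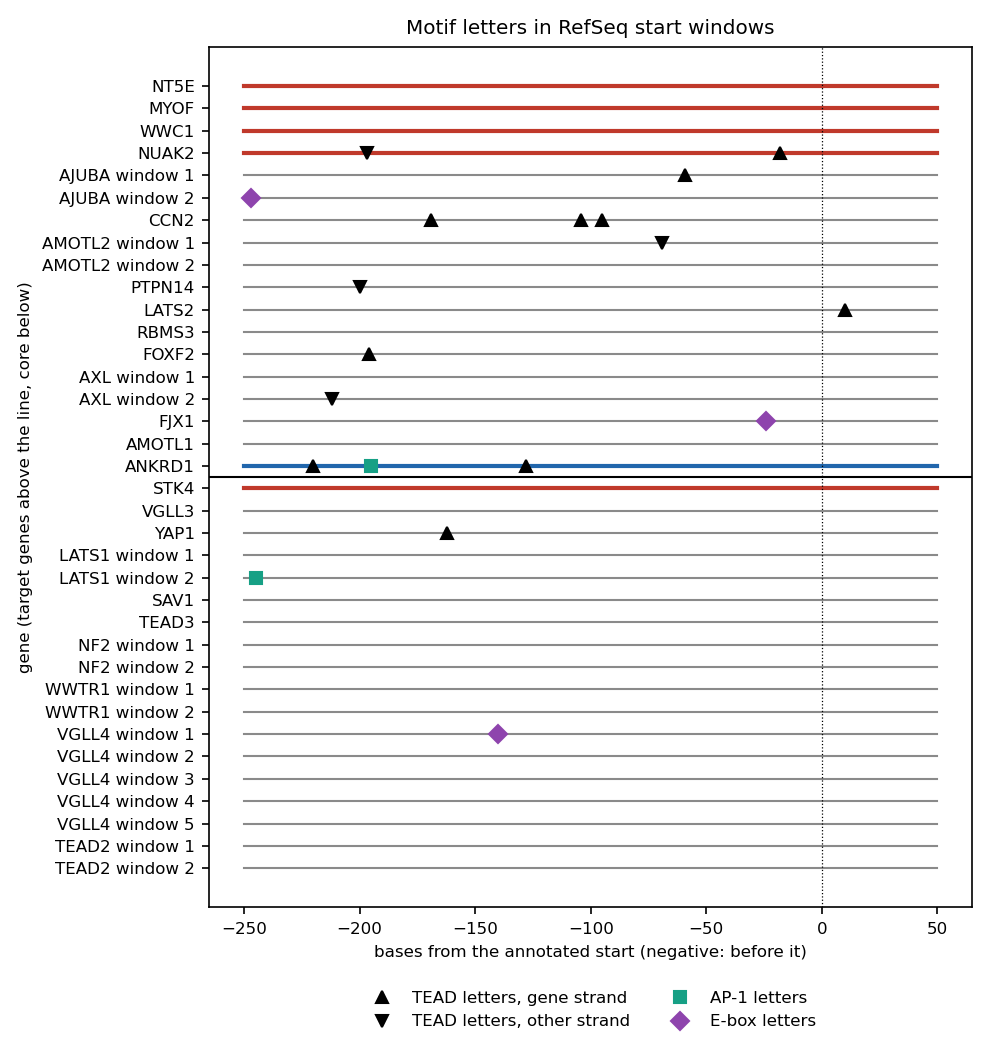
Positions of GGAATG (triangles, pointing by strand), TGANTCA (squares) and CAGCTG (diamonds) from 250 bases before to 50 after the RefSeq start of the genes with a window (some genes have several); line colours give the call in RH30-SR MyoDΔ (red higher, blue lower, grey not called). CCN2 carries 3 GGAATG matches, ANKRD1 and NUAK2 carry 2 each, and NT5E and MYOF carry none.

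Among the matricellular and cytoskeletal targets, the genes most used as readouts of YAP moved in opposite directions. CCN1 encodes CYR61, a secreted protein that binds integrins in the matrix. It read 9.65, 9.51 and 9.61 in RH30-SR and 10.18, 10.11 and 10.09 in MyoDΔ, with no overlap between the groups, and was 1.45-fold higher (log2 0.54 ± 0.06, SE; adjusted p = 0.0029). CCN2 encodes CTGF, a related secreted protein. CCN2 values were 7.58, 7.82 and 7.61 in RH30-SR and 7.97, 7.95 and 7.96 in MyoDΔ, again without overlap, with the control value of replicate 2 closest to the MyoDΔ arrays. Its difference of 0.29 (95% CI 0.12 to 0.46) had an adjusted p of 0.0692 and was not called. Without RH30-SR replicate 2, CCN2 differed by 0.37 with an adjusted p of 0.0148 and was called higher. ANKRD1 encodes an ankyrin repeat protein of striated muscle, found at the sarcomere and in the nucleus. It read 9.51, 9.40 and 9.58 in RH30-SR and 8.93, 9.05 and 8.96 in MyoDΔ, and was 1.43-fold lower (−0.52 ± 0.07, SE; adjusted p = 0.00548). Every MyoDΔ array lay below every control array. ANKRD1 was the target gene that went against the direction of the other 8 called.

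**Figure D4:**
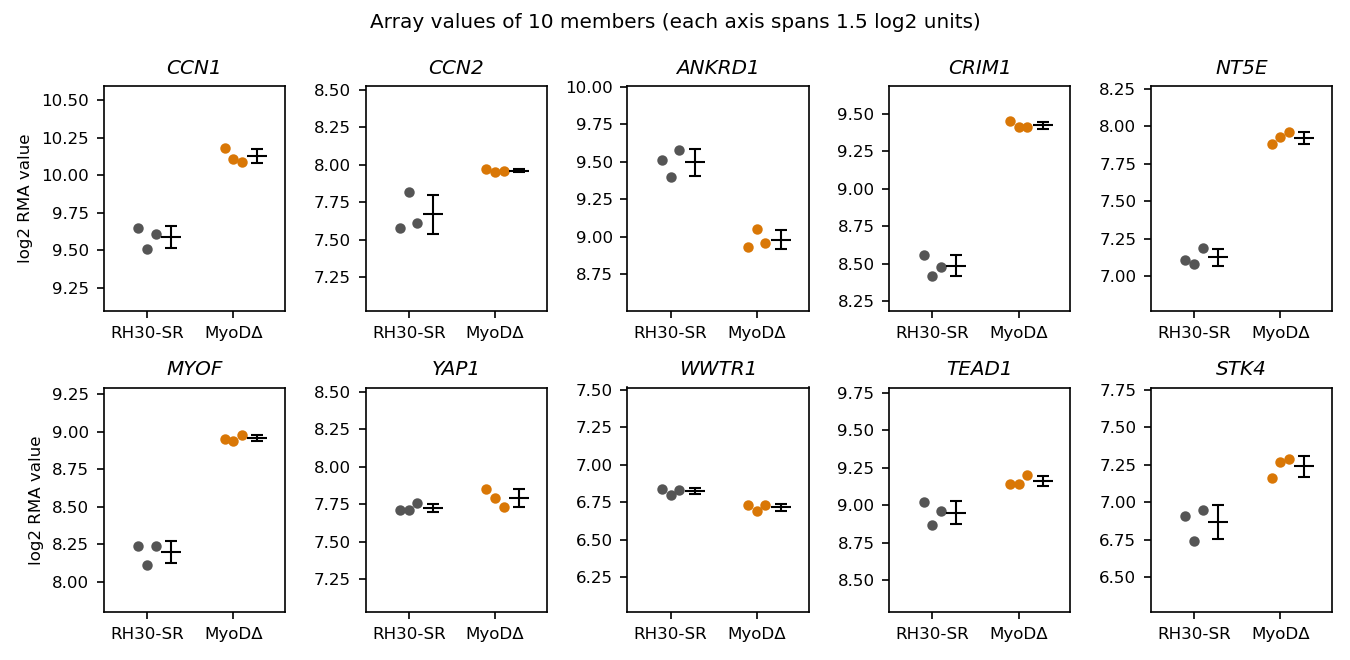
Log2 RMA values of 10 genes on each array, with the mean ± SD of each group (n = 3); each axis spans 1.5 log2 units, so that distances can be compared between panels but levels cannot. CCN1, CRIM1, NT5E and MYOF are higher on all MyoDΔ arrays, ANKRD1 is lower, and YAP1 overlaps.

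The 3 largest rises of the 33 genes were among the membrane and secreted targets. CRIM1, a transmembrane protein that binds bone morphogenetic proteins, read 8.56, 8.42 and 8.48 in RH30-SR and 9.45, 9.41 and 9.41 in MyoDΔ. This 1.91-fold rise (0.94 ± 0.06, SE; adjusted p = 1.83e-04) came first of these, and the gap between the groups exceeded the spread within either. NT5E, the ecto-nucleotidase CD73 that makes adenosine outside the cell, rose from 7.11, 7.08 and 7.19 to 7.88, 7.93 and 7.96. Its groups were well apart, at 1.74-fold (0.80 ± 0.05, SE; adjusted p = 3.39e-04). MYOF encodes myoferlin, a membrane protein known from mouse myoblasts to act in fusion and repair. MYOF read 8.24, 8.11 and 8.24 in RH30-SR and 8.95, 8.94 and 8.98 in MyoDΔ, 1.69-fold higher (0.76 ± 0.06, SE; adjusted p = 5.03e-04), with no overlap. AXL, a receptor tyrosine kinase for GAS6, read 10.18, 10.20 and 10.18 against 10.17, 10.17 and 10.11. The AXL difference of −0.04 (95% CI −0.15 to 0.08; adjusted p = 0.763) was not called, although its groups did not overlap. FJX1, the relative of a fly kinase that modifies Fat cadherins, read 7.55, 7.73 and 7.51 against 7.45, 7.48 and 7.45. Its difference of −0.14 ± 0.07 (SE) was not called (adjusted p = 0.352).

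Of the regulators of small GTPases, both that act on the Rac and Arf proteins rose. DOCK5, an exchange factor for Rac, read 7.08, 7.03 and 7.07 in RH30-SR and 7.71, 7.69 and 7.69 in MyoDΔ. ASAP1, a GTPase-activating protein for Arf, read 6.98, 6.93 and 7.01 against 7.49, 7.59 and 7.51. Neither gene overlapped between groups, and the rises were 1.55-fold for DOCK5 (0.64 ± 0.05, SE; adjusted p = 4.81e-04) and 1.47-fold for ASAP1 (0.56 ± 0.05, SE; adjusted p = 0.00161). ARHGEF17, another exchange factor, overlapped between the groups, at 6.84 to 6.89 and 6.70 to 6.88 (−0.09 ± 0.06, SE; adjusted p = 0.517). Both targets that act on DNA or RNA were not called. FOXF2, a forkhead factor of mesenchyme, lay below the median of all values (4.29) in both groups, at 3.91 to 4.20 and 4.14 to 4.28 (0.13 ± 0.09, SE; adjusted p = 0.509). RBMS3, an RNA-binding protein, read 7.29 to 7.37 and 7.44 to 7.50, apart but by 0.15 ± 0.05 (SE; adjusted p = 0.164).

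The 7 targets that themselves act on the pathway differed by −0.26 to 0.39. Of these, 2 were called, both higher, beside 2.81% of all genes called higher. WWC1 (KIBRA), a scaffold that activates LATS, read 5.20, 5.22 and 5.17 in RH30-SR and 5.62, 5.64 and 5.49 in MyoDΔ, a called rise of 1.31-fold without overlap (0.39 ± 0.06, SE; adjusted p = 0.0108). The WWC1 call fell away without RH30-SR replicate 3, MyoDΔ replicate 1 or MyoDΔ replicate 2, at adjusted p from 0.0504 to 0.0521, and a second WWC1 transcript cluster was not called (0.08; adjusted p = 0.564). NUAK2, a kinase related to AMPK that is reported to keep YAP active, rose from 5.28, 5.30 and 5.35 to 5.69, 5.64 and 5.69. The NUAK2 groups did not overlap, and the rise was 1.29-fold (0.36 ± 0.05, SE; adjusted p = 0.00711). AJUBA, a LIM protein that holds LATS inactive, read 8.47, 8.45 and 8.48 against 8.79, 8.77 and 8.76. Its difference of 0.31 ± 0.05 (SE) passed the adjusted p (0.0106) but not the fold threshold. Angiomotin-like proteins bind YAP and keep it out of the nucleus, and their genes differed in sign. AMOTL1 passed the adjusted p at −0.26 ± 0.05 (SE; adjusted p = 0.0307) below the fold threshold, reading 8.25 to 8.31 in RH30-SR and 7.96 to 8.06 in MyoDΔ. AMOTL2 read 6.88 to 6.98 and 7.07 to 7.15, a difference of 0.17 ± 0.05 (SE; adjusted p = 0.129). LATS2, the second LATS kinase and itself a YAP target, read 7.29 to 7.30 against 7.40 to 7.48 (0.16 ± 0.05, SE; adjusted p = 0.132). PTPN14, a phosphatase that restrains YAP, read 9.20 to 9.31 against 9.41 to 9.43 (0.16 ± 0.05, SE; adjusted p = 0.142). None of AMOTL2, LATS2 and PTPN14 was called, although the groups of each were apart.

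None of the genes for the coactivators and TEAD factors was called. YAP1 read 7.71, 7.71 and 7.76 in RH30-SR and 7.85, 7.79 and 7.73 in MyoDΔ, so that the groups overlapped. The YAP1 difference was 0.06 (95% CI −0.06 to 0.19; adjusted p = 0.613). WWTR1, which encodes the coactivator TAZ, read 6.84, 6.80 and 6.83 against 6.73, 6.69 and 6.73, apart but with a difference of −0.11 (95% CI −0.22 to 0.00; adjusted p = 0.286). Both of these intervals lie within the 25% fold threshold. Of the TEAD factors, TEAD1 read 9.02, 8.87 and 8.96 against 9.14, 9.14 and 9.20, without overlap. It was 0.21 higher (95% CI 0.07 to 0.35) with an adjusted p of 0.0922 and was not called. TEAD2 read 7.11, 7.13 and 7.13 against 6.90, 6.92 and 6.86, and its difference of −0.23 ± 0.05 (SE; adjusted p = 0.0352) passed the adjusted p but stayed below the fold threshold. The largest TEAD differences thus had opposite signs. TEAD3 and TEAD4 overlapped between the groups, at −0.03 ± 0.06 and 0.03 ± 0.06 (SE; adjusted p = 0.866 and 0.880), and the sign of each turned under an alternative normalization or without 1 array.

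Within the kinase module, 1 of 5 genes was called, beside 7.01% of all genes. STK4 encodes MST1, the kinase that activates LATS. STK4 read 6.91, 6.74 and 6.95 in RH30-SR and 7.16, 7.27 and 7.29 in MyoDΔ, 1.30-fold higher without overlap (0.37 ± 0.07, SE; adjusted p = 0.0294). The call was lost whichever array was left out, at adjusted p from 0.0515 to 0.112, and no core gene was then called. STK3, which encodes MST2, lay below the median of all values, at 3.82 to 3.92 and 3.90 to 3.99 (0.07 ± 0.05, SE; adjusted p = 0.546). LATS1 overlapped between the groups, at 7.36 to 7.50 and 7.40 to 7.52 (0.04 ± 0.06, SE; adjusted p = 0.810). SAV1, the adaptor of the MST kinases, and NF2 (merlin), which brings LATS to the membrane, were close to 0 at 0.03 ± 0.05 and −0.06 ± 0.05 (SE; adjusted p = 0.783 and 0.639). VGLL3 and VGLL4 are cofactors that bind TEAD in place of YAP, and VGLL4 represses. VGLL3 read 8.44, 8.50 and 8.53 against 8.69, 8.65 and 8.71, and VGLL4 read 6.47, 6.52 and 6.50 against 6.37, 6.36 and 6.33. The groups of both were apart in opposite directions (0.19 ± 0.05 and −0.14 ± 0.05, SE), and neither was called (adjusted p = 0.0815 and 0.152).

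Other genes of the pathway were set beside the core. Of 33 listed, 28 were measured, 4 were higher, 4 lower and 20 not called, so that 28.6% were called beside 7.01% of all genes, with a median of −0.01. The list was chosen with earlier results of these data known, so its share is a description only. FAT4, an atypical cadherin, read 4.01, 3.94 and 3.81 in RH30-SR and 5.01, 4.98 and 5.03 in MyoDΔ (1.09 ± 0.06, SE). Its control values lay below the median of all values (4.29). FRMD6, a FERM-domain protein upstream of the kinases, was higher by 0.53. MAP4K5, a kinase able to phosphorylate LATS, was called at 0.35 (adjusted p = 0.0491), and this call was lost whichever array was left out. VGLL2, the vestigial-like cofactor of skeletal muscle, fell from 7.56, 7.66 and 7.66 to 5.96, 5.66 and 5.86 (−1.80 ± 0.08, SE). RASSF4, a RAS-association protein of the MST-binding family, fell by 1.93 ± 0.06 (SE), from a range of 7.62 to 7.68 to one of 5.63 to 5.83. NUAK1, the relative of NUAK2, was called lower at −0.48, opposite in sign to NUAK2. The remaining called genes were SLMAP (0.33), which kept its call in 2 of 6 fits that left out an array, and WWC3 (−0.41). The genes before them were named by a rule that takes the largest called changes. SLMAP and WWC3 were named outside it, after their values were seen.

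**Figure D5:**
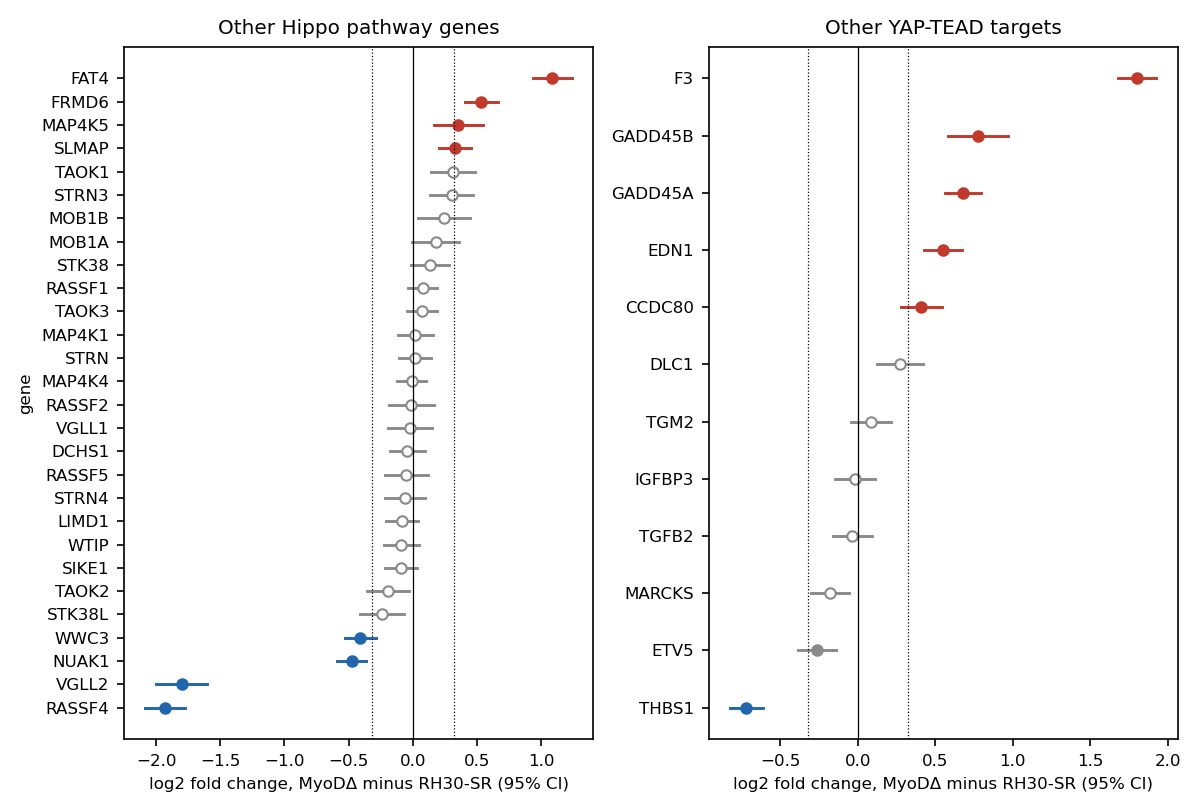
Log2 fold change, RH30-SR MyoDΔ minus RH30-SR, with 95% confidence interval for the other Hippo pathway genes and the other YAP-TEAD targets (n = 3 arrays per group), coloured by call. RASSF4 and VGLL2 lie near −1.93 and −1.80, FAT4 at 1.09 and F3 at 1.80.

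Further YAP-TEAD targets outside the set of 20 were read from the same fit. Of 14 listed, 12 were measured, 5 higher, 1 lower and 6 not called, so that 50% were called beside 7.01% of all genes, with a median of 0.18. This list, too, was chosen with earlier results of these data known, so its share is no independent support for the set of 20. F3 (tissue factor) rose by 1.80 ± 0.05 (SE), GADD45B by 0.78 ± 0.08 and GADD45A by 0.68 ± 0.05, the last 2 being stress-induced genes. EDN1 (endothelin) and CCDC80 rose by 0.55 and 0.41. These 2 were named after their values were seen, outside the rule that takes the largest called changes. THBS1, a matricellular protein like CCN1 and CCN2, read 9.85, 9.84 and 9.84 in RH30-SR and 9.12, 9.13 and 9.12 in MyoDΔ, a difference of −0.72 on the log2 scale. F3 and GADD45A are among the genes that the study took up from these arrays for guides or for PCR. Targets of SRF and its MRTF cofactors, which share some genes with YAP-TEAD, gave 1 higher (FHL2, 0.34) and 10 not called of 11 (9.09% called), with a median of 0.04.

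Of 11 skeletal muscle differentiation genes measured, 8 were called lower in MyoDΔ and 0 higher, beside 4.2% of all genes called lower. On the log2 scale NEB (nebulin) differed by −4.47, CHRNA1 (an acetylcholine receptor subunit) by −3.67 and TNNI1 (a troponin) by −2.91. The log2 of the summed level of this list was 12.89 to 12.92 in RH30-SR and 11.14 to 11.16 in MyoDΔ. Markers of other cell types were measured on the same arrays. Called genes made up 22.2% of the fibroblast, 12.5% of the endothelial, 0% of the epithelial and 12.5% of the leukocyte list, beside 7.01% of all genes. In a list of 8, 1 called gene is 12.5%. Fibroblast markers gave POSTN higher (1.01) and LUM lower (−1.31) of 9, both below the median of all values, and the log2 of the summed level was 8.42 to 8.57 in RH30-SR and 8.35 to 8.43 in MyoDΔ. Endothelial markers gave PECAM1 lower (−0.48) of 8, with summed levels of 7.35 to 7.43 and 7.29 to 7.35, and that call was lost in 5 of 6 fits that left out an array. Epithelial markers gave 0 called of 8 (CLDN4 had the smallest adjusted p, at −0.16), with summed levels of 7.87 to 7.90 and 7.89 to 7.95. Leukocyte markers gave CD68 higher (0.89) of 8, with summed levels of 7.75 to 7.78 and 8.08 to 8.17, while PTPRC, the defining leukocyte gene, was not called and read 2.30 and 2.33 on average. The part that these differences have in the changes of the target genes was not tested.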

How the data were processed

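Total RNA of 6 arrays, 3 of RH30-SR and 3 of RH30-SR MyoDΔ, was hybridised with 1 colour. The authors deposited log2 values for each transcript cluster after RMA, which corrects background, applies quantile normalization and summarises probes by median polish. Affymetrix Expression Console and RMA are named in the submitters' processing notes, and the RMA function of oligo in the study's methods. The genome build, tool versions and release of the annotation are not given in the sources used here. Quantile normalization would hide a change shared by most transcripts. The files give no background measure and arrays have no read depth, so that their number limits the precision.

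Differences were computed with limma 3.58.1 in R 4.3.3 (lmFit, eBayes, group only) over all 65535 clusters. Differences are MyoDΔ less control, and tests were two-sided. Symbols came from the platform annotation: 22758 clusters carried 1 symbol, 1389 several and 41388 none here, and 296 genes, among the members WWC1, had more than 1 cluster. The thresholds followed the study's methods. The procedure was tested on simulated data. A second deposited table held identical values and was not used. Probes can read paralogs or overlapping transcripts, which was not tested.

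The members and lists were chosen with earlier results of these data known. Named genes were the members, MYOD1, F3, GADD45A and, in each other list, up to 3 called genes with the largest change in each direction, or else the gene with the smallest adjusted p. SLMAP, WWC3, EDN1, CCDC80 and PTPRC were named outside this rule. Alternatives were other normalizations, array weights, a trended robust fit, the replicate block, a filter on low clusters, other fold rules, cluster choice, LATS2 as a core gene and leaving out each array. Start-site windows came from RefSeq (GRCh38.p14) and were searched in Python 3.11.15.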

Additional observations from a re-analysis of the deposited data

How the results depend on the processing

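Over 16 alternative settings, MYOD1 and the 33 members gave 542 values, of which 517 kept their direction and side of the threshold, 17 lost a call, 5 gained one and 3 turned sign. TEAD3 turned to 0.01 (0.00944) when quantile normalization was repeated, and without 1 array TEAD3 ranged from −0.055 to 0.00833 and TEAD4 from −0.015 to 0.08. Of 9 called targets, 8 kept the call without each array, WWC1 being the exception. Core genes called were 0 without any 1 array (range 0 to 0), 0 with the replicate block, 2 with no fold threshold and 0 when the fold threshold was tested itself (limma treat). That last setting left 703 clusters, 398 genes and 4 targets (CCN1, ANKRD1, WWC1, NUAK2 and ASAP1 lost their calls), because it asks for a fold over 25% rather than a fold other than 0. Without 1 array, transcript clusters called ranged from 2031 (without RH30-SR MyoDΔ replicate 3) to 2716, against 3094, and genes called higher from 409 (without RH30-SR MyoDΔ replicate 2) to 526, against 631. The median of the targets was 0.29 with only clusters above the median of all values, 0.29 with LATS2 among the core genes, and 0.20 (0.2025) with the mean of all clusters of a gene, where WWC1 (0.23) was not called. CCN2 was called with array weights (0.33; adjusted p = 0.0173). Same-numbered arrays did not deviate together (correlations −0.05, −0.04 and 0.03), and differently numbered arrays gave −0.11 to 0.12. With 3 normalized arrays a group, this check cannot decide whether the replicate numbers pair the samples. With the replicate block 2349 clusters, 1165 genes and 9 targets were called, and STK4 was lost (adjusted p = 0.0765). The second deposited table was identical and gave no separate value. The cause of these differences was not tested where none is given. With 3 arrays a group from 1 clone, differences between clones could not be measured.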
